A study of Mus musculus with 15 samples.

Results

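The comparison described here is that of dendritic cells treated with 2,4-dinitrofluorobenzene (DNFB), labelled DNFB, with the same cells labelled non-treated. It was chosen by the sample titles: 3 DNFB arrays and 3 non-treated arrays, 6 of the 15 arrays of the series, with every probe set other than the array's own controls described, 45037 of 45101. The cells of both groups were a dendritic cell line of A/J background, derived from the epidermis of newborn mice, so the values describe 1 line and not cells in skin. DNFB was the only agent in the treated group by its label. The controls are called non-treated in the sample labels, whereas the design text of the series speaks of a vehicle, so whether the controls received the solvent is not settled. Neither a dose of DNFB nor a time of harvest is given in the sources used here. Arrays treated with hydrogen peroxide (H2O2, n = 3) are used below for a direct comparison. The remaining groups, labelled DPI and DPI + DNFB (n = 3 each), entered the estimate of spread, the signal filter and the choice of probe set per gene. The labels do not state whether a group's 3 arrays stem from separate cultures, and p-values therefore measure array-to-array spread that may be technical.

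DNFB is a small electrophile that binds covalently to nucleophilic groups of proteins and of glutathione, and it is a classic experimental contact allergen. Dendritic cells of the skin take up antigen at the site of contact, and on activation they raise costimulatory ligands and cytokines that a T cell needs besides the antigen itself. Electrophiles also modify cysteines of KEAP1, which holds the transcription factor NRF2 in check, and thereby turn on genes for glutathione synthesis and thiol repair. Damaged protein and amino acid shortage feed into other programmes, among them the heat shock response and translation control through ATF4.

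Of 12701 genes tested, 1337 (10.5%) passed as higher with DNFB and 1768 (13.9%) as lower, at a limma adjusted p below 0.05. Rises made up 43.1% of these calls; on the values as deposited, where the arrays had unequal scaling, 68 genes passed as higher and 142 as lower, rises made up 32.4% and the median of all genes shifted to -0.36. These shares are the background against which each gene list below is read. On 2266 genes (17.8%) all 3 DNFB arrays lay above all 3 non-treated arrays, and on 3004 (23.7%) all 3 lay below. Large changes were mostly rises: 160 genes rose and 101 fell at least 3-fold, 80 and 37 at least 4-fold, and 22 and 2 at least 8-fold. Changes of under 2-fold made up the larger part of both directions, since 403 of the 1337 rises and 476 of the 1768 falls reached 2-fold. The median gene moved by -0.06 on the log2 scale. Across genes, which are not independent replicates, arrays of the same group correlated with r of 0.969 to 0.973 and arrays of different groups with r of 0.931 to 0.943. Precision is limited by how few arrays there are (the median gene had a log2 standard error of 0.197). Dim genes were called less: with genes cut by signal into 5 bins of equal size, 1.7% of the dimmest bin and 18.9% of the brightest passed as higher. The 3'/5' signal ratio of beta-actin, a measure of RNA integrity, was 1.25 on each non-treated array and 1.31, 1.53 and 1.21 on DNFB replicates 1, 2 and 3. The part of this ratio in the differences was not tested.

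**Figure D1:**
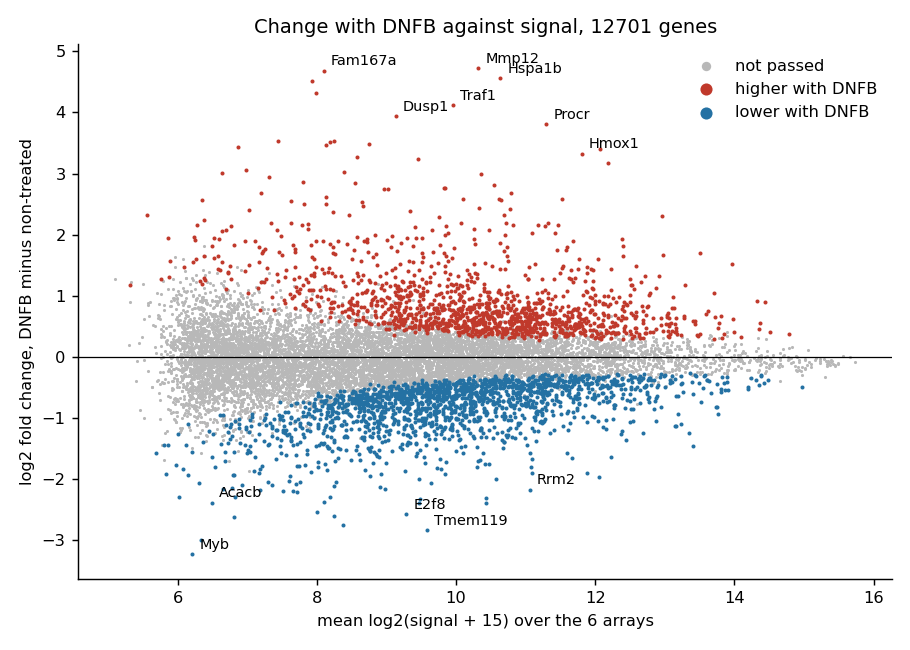
Each point is a gene, with the mean log2(signal + 15) over the 6 arrays on the x axis and the log2 fold change (DNFB minus non-treated) on the y axis. Red points (1337) passed as higher and blue points (1768) as lower. The points furthest from 0 lie above it, up to 4.72 for Mmp12, while the lowest is Myb at -3.24.

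Of 16 dendritic and Langerhans cell markers 15 passed the signal filter, some bright and some dim. H2-Aa and Cd74, which build and chaperone MHC class II, had rescaled signals of 27060 to 38710 and 24860 to 31730 over the 6 arrays, and Itgax (CD11c) lay between 2796 and 3456. Flt3 (7.652 to 152.9), Epcam (127.6 to 244.8) and Zbtb46 (157.7 to 312.5), which mark dendritic or Langerhans cells too, were dim. Some macrophage markers were bright as well: without treatment Csf1r lay between 14990 and 18630 and C1qa between 3985 and 6082. The summed signal of 13 such markers was 28562 to 38962 without and 28504 to 33920 with DNFB, a sum that joins opposite moves. Of 12 tested, 4 passed as lower and 2 as higher (median log2 -0.53). Csf1r, C1qa and Fcgr1 were among the falls, and Cd14 and Cd68 were the rises. The Langerhans cell lectin Cd207 (langerin) was dim without treatment and is described with the lectins below, and Ccr7, the receptor that takes mature dendritic cells to lymph nodes, did not pass the signal filter. Among the markers of other cells, the epidermal keratins Krt14, Krt1 and Krt10 and the T cell receptor chains Cd3d, Cd3e and Cd3g were below the filter. So were 9 of 12 fibroblast markers, among them Col1a1 and Col3a1, while Col1a2 (96.4 to 196.7), Thy1 (10.67 to 111.8) and Fap passed it. The summed signal of 15 keratinocyte markers was 527 to 762 on the non-treated and 908 to 948 on the DNFB arrays, and the 1 of 4 tested that passed was Krt5. Krt5 rose from 98.68, 127.2 and 19.93 to 209.9, 246.1 and 333.5, a call that ended without non-treated replicate 3 (log2 1.11 in place of 1.73). The summed signal of 12 fibroblast markers was 1839 to 1968 on the non-treated and 979 to 1276 on the DNFB arrays. Most of it came from Fap, a surface protease that fell 2.25-fold. For 8 T cell markers the sum was 1678 to 2120 without and 2496 to 2824 with DNFB, most of it Cd28, which rose from 1397, 1598 and 1578 to 2302, 2145 and 2432. For 7 NK cell markers the sum was 1078 to 1350 without and 1381 to 1842 with DNFB, and Gzmb and Eomes passed as higher. Gzmb had a log2 change of 1.72, and 1.06 without non-treated replicate 1. For 8 endothelial markers the sum was 485 to 660 without and 409 to 432 with DNFB, and Kdr passed as lower (log2 -1.18), a call that ended without DNFB replicate 3 (-0.85). The part of these markers in the results was not tested. In bulk RNA, a change in the number of cells of a type and a change in RNA per cell cannot be told apart.

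The metalloelastase Mmp12, which cleaves elastin and other matrix proteins, had the largest rise. Its signals were 193, 246.1 and 265.2 on the non-treated arrays and 6980, 5439 and 7351 on the DNFB arrays, a 26.4-fold rise (log2 4.72 ± 0.174 SE, n = 3 a group, adjusted p = 3.9e-13). The groups were more than an order of magnitude apart. Procr, the endothelial protein C receptor, had the smallest p of all genes. It rose from 611.3, 682.6 and 676.7 to 9973, 8431 and 9853, which is 14-fold (log2 3.81 ± 0.126, adjusted p = 1.11e-13). Traf1, an adaptor of TNF receptor signalling and itself a target of NF-kB, rose from 201.9, 279.5 and 194.9 to 4797, 3891 and 3743 (17.4-fold). The chemokine Cxcl3, which attracts neutrophils, rose from 29.53, 41.35 and 38.57 to 1795, 833.6 and 1032 (22.9-fold). Both sets of signals were tight within their group by comparison with the step between groups.

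Several of the large rises started from signals near the bottom of the scale, where the pseudocount of 15 sets part of the fold. Fam167a rose from 55.22, 64.93 and 13.08 to 1509, 1516 and 1141 (25.8-fold), and the stromelysin Mmp10 from 41.6, 95.92 and 14.19 to 1191, 1057 and 1110 (19.9-fold). The pioneer transcription factor Foxa1, known from endodermal and glandular epithelium, rose from 124.6, 177.4 and 64.12 to 1419, 1547 and 1297 (11.1-fold). The membrane mucin Muc3 had 63.65, 177.5 and 31.8 without and 639.9, 1202 and 1368 with DNFB. Abtb2 rose 11.4-fold and the serum and glucocorticoid regulated kinase Sgk1 11.1-fold. Trib1, a pseudokinase that directs the degradation of C/EBP alpha, rose from 19.7, 126.1 and 12.03 to 656.2, 576.4 and 498.2. Its log2 change of 3.53 became 4.26 without non-treated replicate 2, the high array of its group. The inducible chaperone Hspa1b rose from 150.8, 490.7 and 405.1 to 2187, 16910 and 12340, and DNFB replicate 1 stood far below the other DNFB arrays. Without that array its log2 change was 5.46 in place of 4.56. Hspa1b has a near-identical copy, Hspa1a, and the probes may not separate them.

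**Figure D2:**
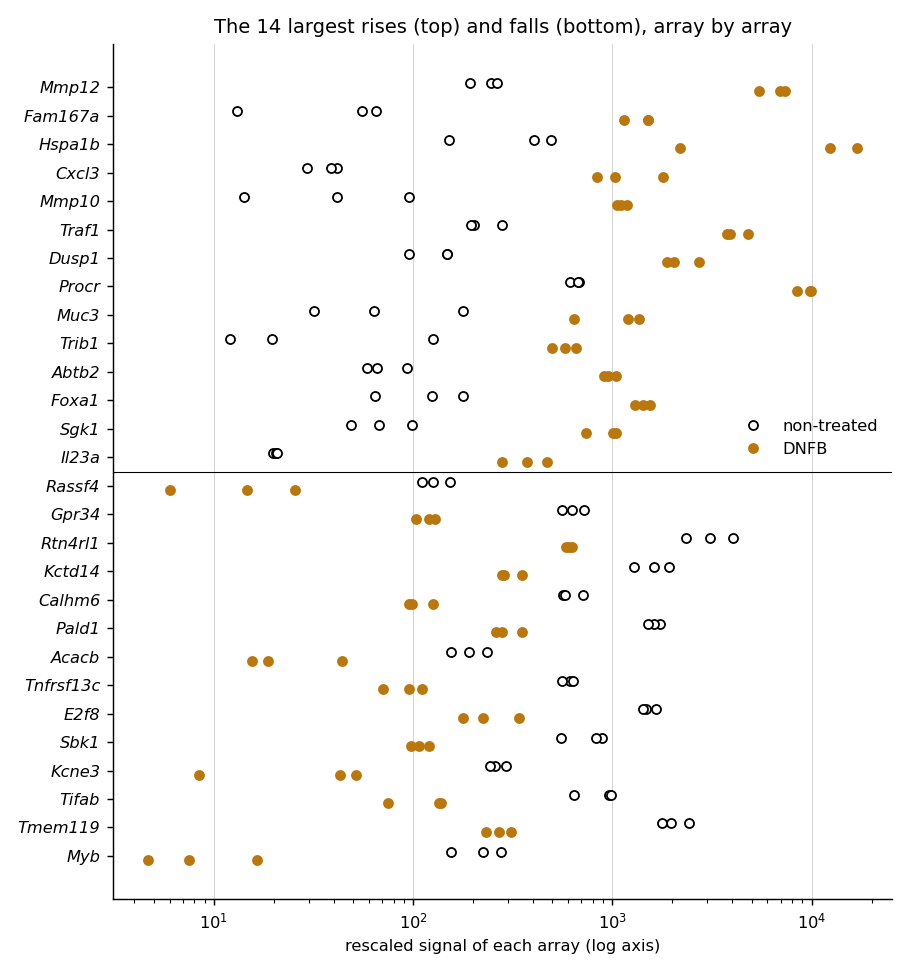
Rescaled signal of each array on a log axis for the 14 genes with the largest rises (upper panel) and the 14 with the largest falls (lower panel) among named genes past the threshold with no overlap of the groups. Open circles are non-treated and filled circles DNFB arrays, 3 each. Hspa1b is the rise with the widest DNFB arrays (2187 to 16910), and Myb is the fall that ends at the lowest signals (4.698 to 16.46).

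The largest fall was of Myb, a transcription factor of immature blood cells. Its signals of 224.2, 154.6 and 276.5 dropped to 4.698, 7.533 and 16.46, around the pseudocount of 15, so its fold has no exact size. Tmem119, a membrane protein best known from microglia, fell from 2427, 1971 and 1775 to 312.1, 233.7 and 270.7 (7.20-fold, log2 -2.85 ± 0.185, adjusted p = 1.05e-09). Tifab, an inhibitor of TRAF6 signalling, fell from 962.4, 982.4 and 642 to 134.5, 138.6 and 75.25. Each of these 3 genes had groups that lay far apart. The atypical repressor E2f8 fell from 1471, 1421 and 1661 to 339.6, 178.6 and 225.7, which is 6-fold. Tnfrsf13c, the receptor for the B cell survival factor BAFF, fell 5.82-fold, and the kinase Sbk1 6.12-fold. The lipid enzyme Acacb, which makes the malonyl-CoA that restrains fatty acid oxidation, fell from 156, 190.9 and 235.8 to 15.57, 18.65 and 44.15. Pald1, Calhm6, Kctd14, Gpr34 and Rtn4rl1 each fell by 4.91-fold to 5.25-fold. Rassf4 fell to signals of 6.066, 25.55 and 14.75, again around the pseudocount, and the mean of its probe sets gave -1.09 in place of -2.29 and did not pass. Falls of smaller size with small errors were those of the prostaglandin E receptor Ptger3 (3.75-fold), the adenylyl cyclase Adcy7 (3.73-fold), the actin regulator Evl (4.19-fold), the lysyl oxidase Loxl3 (3.51-fold), the mitotic kinase Pbk (3.20-fold) and the inhibitory receptor Btla (3.24-fold). Of these, Adcy7 was bright, with signals of 6992, 7523 and 7217 that fell to 1740, 2308 and 1788.

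**Figure D3:**
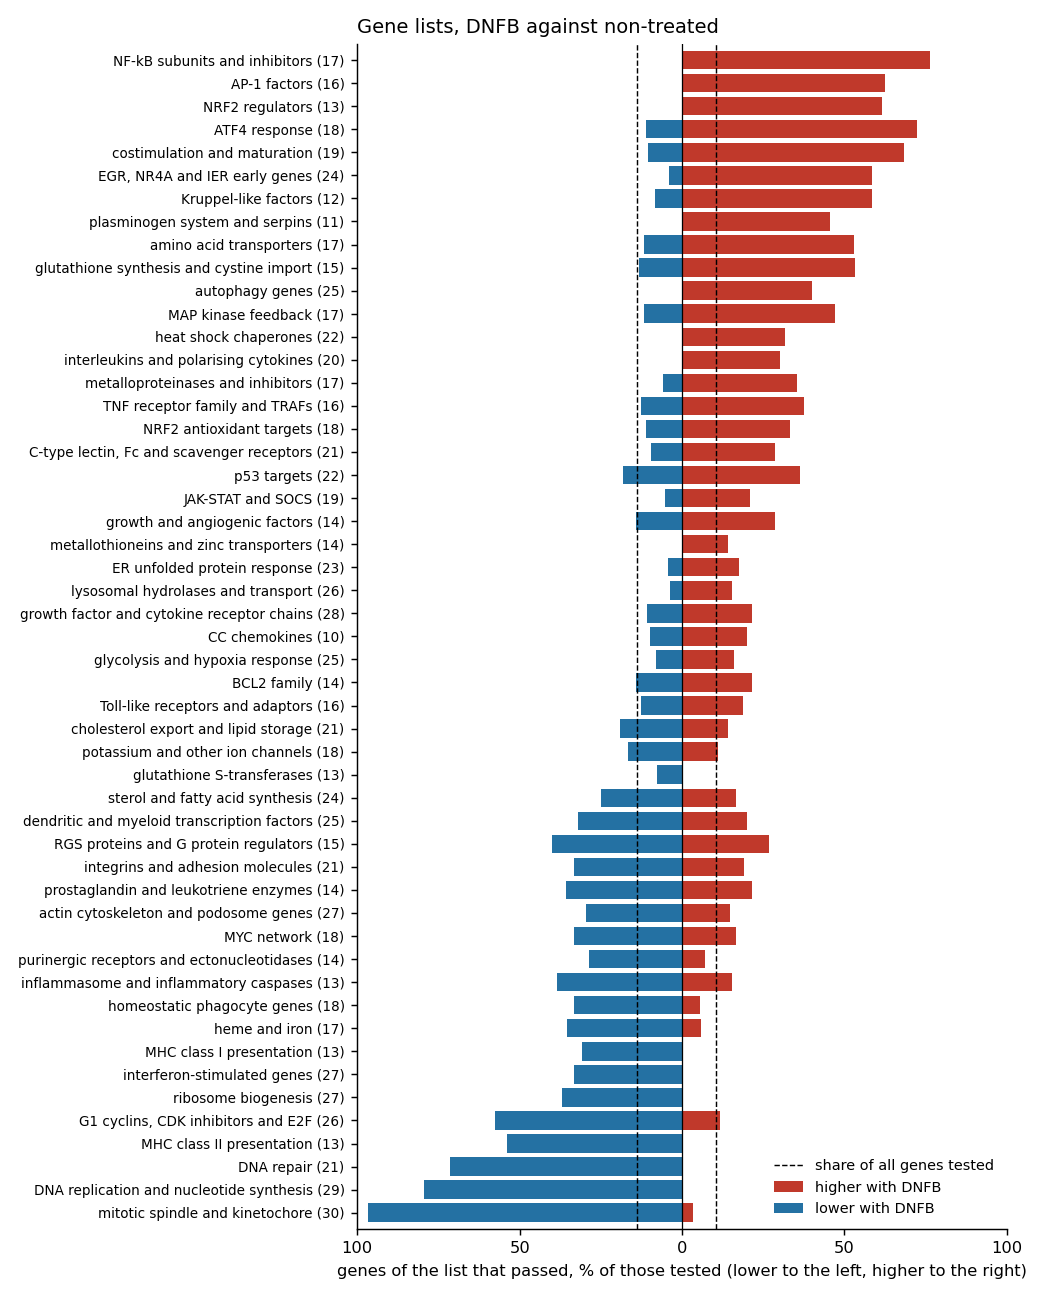
For each gene list with at least 10 tested genes (number in brackets), the percentage of tested genes that passed as higher with DNFB (red, to the right) and as lower (blue, to the left). Dashed lines mark the same shares over all 12701 genes, 10.5% and 13.9%. NF-kB subunits and inhibitors stand at the top with 13 of 17 higher, and the mitotic list at the bottom with 29 of 30 lower.

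The control layer of the NRF2 pathway moved along with its targets. Of 13 regulators tested, 8 rose and none fell (median log2 0.71). NRF2 itself (Nfe2l2) rose from 2316, 2289 and 2294 to 3460, 3852 and 3287, a modest 1.53-fold (log2 0.61 ± 0.105, adjusted p = 0.00018). Its competitor Bach1, a repressor that occupies the same DNA element, rose more, from 2129, 2276 and 1894 to 5389, 6080 and 5591 (2.70-fold). The small MAF proteins pair with both of them. Maff rose 4.88-fold, from 399.2, 363.3 and 365 to 1640, 1980 and 2082, while Mafg rose 2.32-fold and Mafk 1.83-fold. Keap1 had a log2 change of 0.28 ± 0.142 and did not pass (adjusted p = 0.175). Sqstm1, an autophagy receptor that captures KEAP1, rose from 3827, 3775 and 3095 to 19200, 15740 and 18150. The groups did not overlap for any of these 7 genes, Keap1 included, although its step was small beside the spread.

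Among 18 antioxidant target genes 6 rose and 2 fell, and leaving out any single array took the 2 falls to 1 or 0. The heme oxygenase Hmox1 had 1166, 1268 and 932.1 without and 14670, 10850 and 9082 with DNFB. Sulfiredoxin (Srxn1), which repairs overoxidised peroxiredoxins, had 1532, 1621 and 1457 against 14530, 13620 and 13680. Blvrb, a reductase that acts downstream of heme oxygenase and on flavins, rose 3.48-fold, and the glutathione conjugate pump Abcc1 rose 1.33-fold by its brightest probe set, though the mean of its probe sets (log2 0.24) did not pass. Nqo1 stayed dim, with signals of 81, 101.5 and 62.63 against 212.8, 144.9 and 192.9, and did not pass (log2 1.04 ± 0.55, adjusted p = 0.193).

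Genes that make and recycle glutathione rose in 8 of 15 cases and fell in 2 (median log2 0.74), whereas those that attach it to electrophiles did not rise. The catalytic subunit Gclc rose from 2185, 2272 and 1954 to 5199, 4995 and 4837 (2.34-fold), and the modifier subunit Gclm 2.16-fold. The cystine importer Slc7a11 rose from 251.6, 164 and 194.3 to 884.3, 939.6 and 631.4 (3.82-fold), with its partner chain Slc3a2 1.78-fold higher. Glutaredoxin (Glrx) and the glutathione-degrading enzyme Chac1 rose 3.86-fold and 3.96-fold. Of 13 glutathione S-transferases none passed as higher, and their median log2 change was -0.25. Gstp1, the brightest described of them, passed as lower at 1.26-fold, a call that ended without non-treated replicate 3 (log2 -0.28) or DNFB replicate 2 (log2 -0.27). In the pentose phosphate pathway, which supplies NADPH, 2 of 7 genes rose and 2 fell. Transaldolase (Taldo1) rose 1.78-fold and Pgd 1.47-fold, while transketolase (Tkt) was 1.42-fold and Rpe 1.43-fold lower. Of the 2 falls 1 was left without non-treated replicate 3 or any 1 of the DNFB arrays.

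Iron and metal genes took a different course from Hmox1. Of 17 genes of heme and iron handling 1 rose and 6 fell. The transferrin receptor Tfrc fell from 6068, 5052 and 7288 to 3995, 3697 and 4097 (1.54-fold), Aco1, the iron regulatory protein, fell 1.69-fold, Hfe 1.61-fold and the heme synthesis enzyme Urod 1.69-fold. The metallothioneins Mt1 and Mt2, which bind zinc and copper, were bright in both groups and did not pass, at log2 changes of 0.14 ± 0.111 and 0.02 ± 0.122. Their signals were 24230 to 31880 for Mt1 and 14490 to 19210 for Mt2 over the 6 arrays, so the groups overlapped. The zinc exporters Slc30a1 and Slc30a4 rose 1.94-fold and 1.53-fold. They were the only 2 of 14 genes in this list that passed.

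The ATF4 list, which covers the response to amino acid shortage and blocked translation, rose in 13 of 18 cases and fell in 2 (median log2 0.85). Either fall was lost on leaving out 1 of 4 arrays (non-treated replicate 1 or 3, DNFB replicate 1 or 2), which left 1. Atf3 rose from 72.18, 156.4 and 83.8 to 640.5, 802.4 and 610.4 (6.10-fold, log2 2.61 ± 0.218, adjusted p = 3.61e-08). The stress factor Ddit3 (CHOP) rose from 406.1, 595.6 and 287.2 to 1331, 1235 and 1159 (2.94-fold). Ppp1r15a (GADD34), which recruits a phosphatase to restart translation, rose 3.46-fold, and the translation repressor Eif4ebp1 2.09-fold. Cebpb had tight signals of 1148, 1073 and 1033 against 4530, 5168 and 4931. In all of these the groups were apart. Amino acid transporters rose in 9 of 17 cases and fell in 2, a number that was 1 without non-treated replicate 3 or DNFB replicate 3. Slc7a5, the large neutral amino acid importer, rose 2.40-fold, Slc1a4 3.67-fold and the glycine transporter Slc6a9 2.05-fold. Slc43a2 went the other way, from 1877, 1632 and 1492 to 522, 457.6 and 502.2.

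Of 23 genes of the unfolded protein response of the endoplasmic reticulum 4 rose and 1 fell. Dnajb9 rose 1.77-fold, Herpud1 1.76-fold, Edem1 1.57-fold and Atf6 1.61-fold. The main chaperone of that compartment, Hspa5 (BiP), had 26710, 25750 and 23470 without and 24960, 30540 and 23700 with DNFB, groups that overlapped (log2 0.05 ± 0.129). Xbp1 was 1.41-fold lower, but its call ended without any of 4 arrays, non-treated replicate 2 (log2 -0.40) or 3 (-0.52) and DNFB replicate 1 (-0.42) or 3 (-0.47). Heat shock chaperones and co-chaperones rose in 7 of 22 cases, with none lower. The rises include the mitochondrial Hspa9 (log2 0.37), whose call ended without DNFB replicate 2 (0.29). Hsph1 rose from 6260, 7313 and 5750 to 16170, 26420 and 21340 (3.25-fold), and the co-chaperone Bag3 from 650.4, 705.8 and 628.1 to 1294, 1548 and 1372 (2.10-fold). Among 25 autophagy genes 10 passed as higher and none as lower. Gabarapl1 rose 2.67-fold, the receptor Tax1bp1 2.41-fold and Map1lc3b 1.74-fold.

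Promoters were searched on both strands for 13 short motifs, and 2 pairs of motif and list are given in detail here and below, chosen after their shares were seen. For the ATF4 list the motif is TGATGNAA, the composite element that C/EBP and ATF proteins share. The window ran from 250 bases before to 50 bases after the start (RefSeq sequences, GRCm38.p6), and only genes with 1 listed promoter were used. Of 15 members with such a promoter 4 held a match (26.7%), against 2.3% of 8229 tested genes and 4.2% of all 22862 promoters searched. The share was 6.1% of 261 genes that rose at least 2-fold and 2.5% of 281 that fell at least 2-fold. Of these 4 promoters 3 are shown, since they let the element be compared across genes. Trib3 and Asns were picked after their values were seen: the pseudokinase gene Trib3 rose 3.28-fold and asparagine synthetase, Asns, 1.80-fold. Printed are 150 bases before and 30 bases after the start, in the direction of transcription, with the element in capitals. A match is a description of letters and not of binding. Among the other pairs, the antioxidant response element core TGANNNNGC stood in 4 of 12 promoters of NRF2 antioxidant targets (33.3%), against 43.0% of tested genes, and the heat shock element TTCNNGAA in 2 of 13 of heat shock chaperones (15.4%), against 6.8%.
Atf3 (chr1:191183304-191183483, minus strand, match beginning 110 bases before the start, reverse orientation): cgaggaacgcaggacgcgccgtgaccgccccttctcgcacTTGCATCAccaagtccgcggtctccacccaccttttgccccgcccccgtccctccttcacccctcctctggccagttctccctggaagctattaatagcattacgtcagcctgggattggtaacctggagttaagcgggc
Trib3 (chr2:152344031-152344210, minus strand, match beginning at base 15 after the start, reverse orientation): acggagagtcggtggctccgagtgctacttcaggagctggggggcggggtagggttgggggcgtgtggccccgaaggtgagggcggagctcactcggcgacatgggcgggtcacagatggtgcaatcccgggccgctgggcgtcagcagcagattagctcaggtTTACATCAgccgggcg
Asns (chr6:7693180-7693359, minus strand, match beginning 23 bases before the start, forward orientation): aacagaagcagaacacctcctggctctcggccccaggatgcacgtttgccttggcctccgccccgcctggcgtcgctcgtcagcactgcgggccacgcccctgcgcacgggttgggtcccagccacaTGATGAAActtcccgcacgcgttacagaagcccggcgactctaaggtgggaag

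Many early response transcription factors rose, though not all. Of 16 AP-1 and MAF factors 10 rose and none fell (median log2 0.83). The median was 0.31 in the arrays deposited at the lower scaling and 1.16 in the others, sets that are described below. The lists share some members: Maff, Mafg and Mafk among these rises were also counted with the NRF2 regulators. Fosl2 rose from 562.7, 1019 and 660.7 to 3021, 4319 and 3791 (4.99-fold, log2 2.32 ± 0.174), Jun from 3418, 2163 and 1866 to 9461, 6530 and 6372 (3.04-fold) and Jund 2.77-fold. Of 24 EGR, NR4A and related early genes 14 rose and 1, Myc, fell. No EGR gene passed: the log2 changes were 0.93 for Egr1, 0.52 for Egr2 and -0.18 for Egr3. Nr4a2 (-0.03) did not pass either. The orphan receptor Nr4a3 rose from 98.93, 70.63 and 151.2 to 676.7, 1286 and 955.6 (8.14-fold) and Nr4a1 3.61-fold. Phlda1 rose from 573.1, 794.2 and 572.2 to 3544, 4008 and 4094 with a small error (log2 2.57 ± 0.155). Myc fell from 6126, 5313 and 5842 to 3452, 4001 and 3374. Of 12 Kruppel-like factors 7 rose. Klf4 and Klf6 rose 3.08-fold and 3.12-fold, whereas Klf10 fell from 952.2, 1104 and 884.5 to 433, 501.6 and 358.8.

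Feedback inhibitors of MAP kinases rose in 8 of 17 cases and fell in 2. Most of the list are dual-specificity phosphatases, which switch off ERK, JNK and p38, and the rest are Sprouty and Spred proteins and Errfi1. Dusp6 and Dusp7 were the falls (log2 -1.37 and -1.52), and Spred1 and Errfi1 were among the rises. Dusp1 rose from 148.6, 148.1 and 95.48 to 1875, 2720 and 2040, and Dusp8 from 130.9, 117 and 80.24 to 1239, 1276 and 1008 (9.66-fold). Dusp16, which prefers JNK and p38, rose 4.06-fold from 1140, 1114 and 944.6 to 4269, 4408 and 4418. Each of the 3 rose without overlap between groups. Of 17 NF-kB subunits and inhibitors 13 rose and none fell (median log2 0.97), the largest share of genes called higher among lists of at least 10. Both the activators and their brakes rose: the subunit Nfkb2 from 539.2, 554 and 504.3 to 1558, 1514 and 1482 (2.80-fold) and Rela 2.07-fold, beside the inhibitors Nfkbie (3.65-fold), Nfkbib (2.48-fold) and Nfkbiz (2.57-fold). The antiapoptotic NF-kB target Birc3 rose from 2080, 2165 and 1737 to 5840, 6484 and 5801.

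Secreted signals changed selectively. CXC chemokines rose in 5 of 7 cases (median log2 1.70). Ppbp (log2 0.51) was among the 5, but its call ended without non-treated replicate 1 (0.49) or 3 (0.45) or DNFB replicate 1 (0.34) or 3 (0.56). Cxcl1 (-0.31) did not pass. Cxcl2 rose from 287, 219.7 and 152.6 to 2284, 1934 and 2237, the interferon-inducible Cxcl10 from 36.41, 178.4 and 69.36 to 426.8, 495.5 and 660.4, and Cxcl16 from 358.1, 428 and 388 to 1238, 1178 and 1511. Of 10 CC chemokines 2 rose and 1 fell. Ccl3 rose 5.51-fold and Ccl4 2.16-fold, while the monocyte attractant Ccl2 fell from 1220, 808.5 and 709.6 to 407, 402.1 and 474.8. Ccl22, a product of mature dendritic cells, had 263.2, 253 and 496 against 421.3, 548 and 809.4 and did not pass. Of 20 interleukins and polarising cytokines 6 rose and none fell. The p19 subunit of interleukin 23, Il23a, rose from 19.95, 20.63 and 20.86 to 469.7, 374.2 and 280.3, but Il12b, which encodes its partner subunit, had 118.4, 91.15 and 72.61 against 45.49, 61.72 and 67.63 (log2 -0.56 ± 0.445, adjusted p = 0.418). In the interleukin 1 family, Il1b rose 3.76-fold, Il1a 2.61-fold and Il1f9 (interleukin 36 gamma) 3.72-fold, while Il1rn (log2 0.68), Il18 (0.09) and Il1f6 (0.04) did not pass. The signals of Il1f9 went from 116.9, 116.5 and 116.7 to 605.4, 323.1 and 545.2. Osm rose 2.51-fold. Tnf did not pass, with 535.5, 466.9 and 284.9 against 172.4, 439.6 and 402.4, and neither did Il10, which was dim. Of 14 growth and angiogenic factors 4 rose and 2 fell. Vegfa rose 2.88-fold and Pdgfb 2.32-fold, while Pgf fell from 989.2, 863.3 and 569.9 to 285.2, 242.2 and 230.2 and Angptl4 fell 2.76-fold.

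The costimulation and maturation list had 13 of 19 tested members that passed as higher and 2 as lower (median log2 1.03). It is not confined to the cell surface, since the intracellular Birc3, Traf1 and Socs2 are among the 13. The 2 falls became 1 on leaving out any array other than DNFB replicate 3. Cd80, a ligand of CD28, rose from 424.1, 462.6 and 416.7 to 2800, 2899 and 2320, and Cd83 from 624.3, 583.9 and 422.9 to 2754, 3299 and 2870. The inhibitory ligand Cd274 (PD-L1) rose as well, from 186.8, 164.6 and 101.7 to 328, 307 and 358 (2.14-fold). Cd40 rose 1.62-fold, and the inhibitory receptor Cd72 fell from 2612, 2825 and 2896 to 1062, 1173 and 1501. The groups of these 5 genes did not overlap.

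Of 13 genes for MHC class II presentation none rose and 7 fell. The structural chains and their chaperone did not pass, as shown by H2-Ab1 with 8720, 10300 and 8984 against 8281, 8596 and 9418 (log2 -0.09 ± 0.125). The genes that fell act around them. The transactivator Ciita fell from 797.4, 715 and 792.6 to 430.6, 353.2 and 334.8 (2.03-fold), and the peptide exchange subunits H2-DMb2 and H2-DMa fell 2.29-fold and 1.54-fold. The lysosomal thiol reductase Ifi30 fell 1.67-fold. Marchf1, a ubiquitin ligase that takes MHC class II and CD86 off the surface, fell most, from 236.7, 388.4 and 306.8 to 62.99, 54.52 and 68.42 (4.16-fold, log2 -2.06 ± 0.368, adjusted p = 0.000282). Of 13 genes for class I presentation none rose and 4 fell. Those 4 included all 3 immunoproteasome subunits: Psmb8 from 9705, 7493 and 8694 to 3709, 4150 and 4492, Psmb9 from 5452, 5200 and 4686 to 2721, 2378 and 2631, and Psmb10 from 3842, 3566 and 2953 to 1511, 1649 and 1707. Each was close to 2-fold lower with no overlap. The peptide transporter Tap1 was lower by a log2 change of -0.59, a call that ended without non-treated replicate 2 (log2 -0.53) or DNFB replicate 3 (-0.46).

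Pattern recognition genes changed in both directions. Of 21 lectins, Fc and scavenger receptors 6 rose and 2 fell, and the falls were 1 without non-treated replicate 3 or DNFB replicate 3. Langerin, Cd207, rose from 92.56, 223.2 and 90.61 to 932.8, 1088 and 951.3 (7.20-fold, log2 2.85 ± 0.435, adjusted p = 5.64e-05). Clec4d, an activating lectin for mycobacterial glycolipid, rose from 591.8, 841.5 and 823.3 to 3476, 4220 and 4516 (5.36-fold). Clec5a rose 2.05-fold, and the high-affinity IgG receptor Fcgr1 fell 2.15-fold. Of 16 Toll-like receptors and adaptors 3 rose and 2 fell, counts not far from the shares of all genes tested (10.5% and 13.9%). The 3 that rose were accessory proteins: Cd14 from 1443, 1331 and 1159 to 14060, 13200 and 14430 (10.5-fold, log2 3.40 ± 0.138), Ly96 (MD-2), the lipid-binding partner of TLR4, from 264.6, 250 and 260.9 to 933.9, 1213 and 1059 (3.94-fold), and the adaptor Ticam1 2.58-fold. Tlr4 itself had 682.9, 905.1 and 703.4 against 628, 1003 and 589.6, which overlapped, and Tlr2 did not pass. Tlr3 fell from 458.7, 457.1 and 407.5 to 44.03, 201.4 and 57.48, and Cd180, a relative of TLR4, fell 2.27-fold.

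Inflammasome genes fell in 5 of 13 cases. The adaptor Pycard (ASC) fell from 2194, 2271 and 2588 to 785.2, 977.8 and 1019 (2.52-fold), Casp1 fell from 3927, 4092 and 3677 to 2540, 2542 and 2427 (1.55-fold), the pore-former Gsdmd 2.02-fold and Txnip 2.41-fold. Il1b, their substrate, was 1 of the 2 genes of this list that rose, and the number higher was 1 without any single array other than DNFB replicate 3. Nlrp3 did not pass (log2 0.44 ± 0.195), though it did without DNFB replicate 3 (0.63). In the TNF receptor and TRAF list 6 of 16 rose and 2 fell (1 without non-treated replicate 1 or 2 or DNFB replicate 3). Besides Traf1, the TNF receptor Tnfrsf1b rose from 523.8, 625.1 and 444.6 to 1834, 2034 and 1681 (3.44-fold), and the death receptor Fas from 21.45, 32.09 and 52.83 to 204.3, 156.5 and 207.2. One other probe set of Tnfrsf1b had the opposite sign and did not pass. In the JAK-STAT list, which holds the suppressors of cytokine signalling, 4 of 19 genes rose and 1 fell. The 4 were Socs2, Socs7, Socs3 and Cish, whereas Socs1, Socs4, Socs5 and Socs6 did not pass. The mean of the probe sets of Socs2 (log2 0.55) did not pass either. Socs3 rose from 215.8, 418 and 213.2 to 1616, 1208 and 1639 (5.25-fold) and Cish from 291, 293.4 and 350.8 to 1509, 1421 and 1298 (4.37-fold).

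Cytokine and growth factor receptors were called higher in 6 and lower in 3 of 28 cases, with 3 higher without non-treated replicate 3, DNFB replicate 1 or DNFB replicate 2. Csf1r, the receptor for macrophage colony-stimulating factor, fell from 15070, 18630 and 14990 to 6636, 6791 and 6822 (2.39-fold, log2 -1.26 ± 0.12). The decoy receptor Il1r2 was already among the brightest genes and rose from 15160, 15470 and 14290 to 30580, 27960 and 26550 (1.89-fold). Il6st (gp130), the shared chain of the interleukin 6 family, rose 2.16-fold. Flt3 was dim and did not pass.

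**Figure D4:**
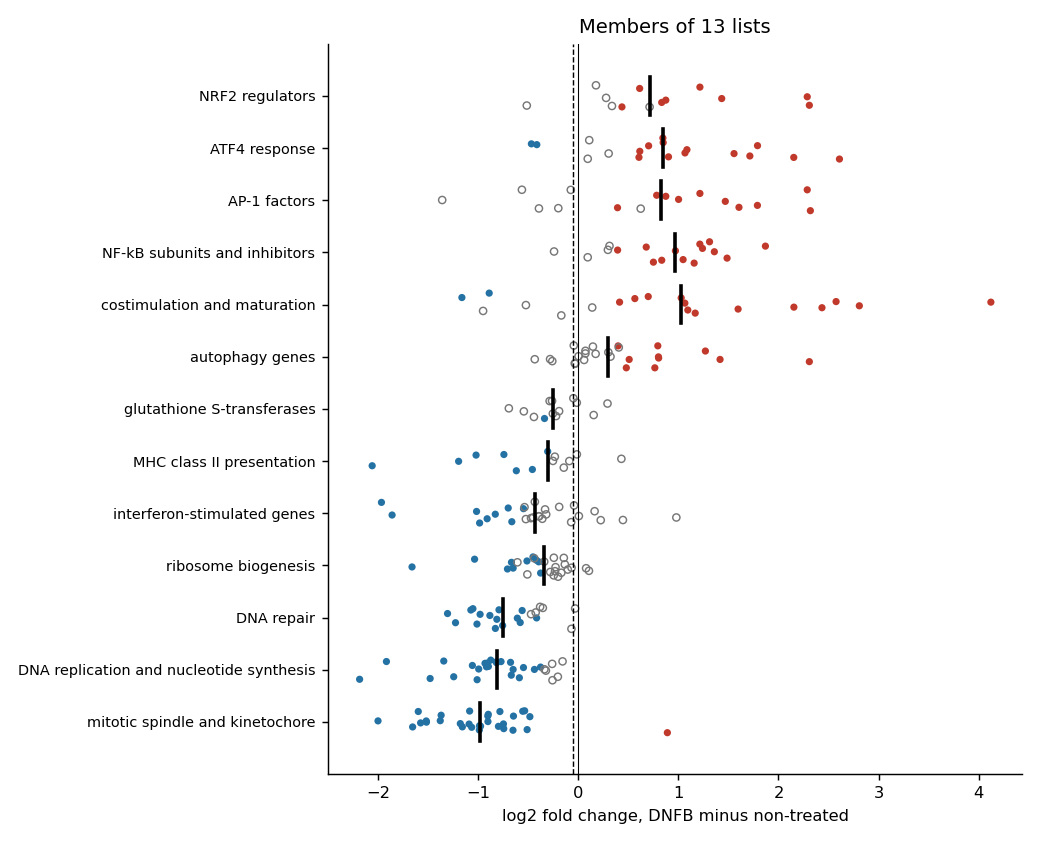
Log2 fold change (DNFB minus non-treated) of each tested gene of 13 lists. Filled points passed (red higher, blue lower), open points did not, and the vertical bar is the median of the list. The dashed line is the median of all genes, -0.06. The mitotic list centres on -0.98 with a single red point, Cenpa, and the NF-kB list on 0.97.

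Genes of matrix breakdown and cell-surface proteolysis rose: 6 of 17 metalloproteinases and their inhibitors, with 1 lower, and 5 of 11 genes of the plasminogen system and serpins with none lower. Besides Mmp12 and Mmp10, the collagenase Mmp13 rose from 199.3, 273 and 141.8 to 589.1, 1139 and 700.9 (3.72-fold) and the sheddases Adam8 and Adam9 2.17-fold and 1.63-fold. The urokinase receptor Plaur rose from 377.7, 633.6 and 375.7 to 3337, 3728 and 4000 (7.97-fold), and tissue plasminogen activator, Plat, from 86.54, 103.5 and 73.82 to 299.7, 316.9 and 306.3 (3.15-fold). Serpinb9, an inhibitor of granzyme B, rose 4.43-fold. Adhesion genes were mixed, with 4 of 21 higher and 7 lower, and the 7 became 4 without non-treated replicate 3 and 3 without DNFB replicate 3. The tetraspanin Cd9 rose 2.79-fold and Alcam 1.64-fold, and the selectin ligand Selplg fell 2.15-fold. E-cadherin, Cdh1, which anchors Langerhans cells to keratinocytes, was 1.93-fold lower, but its call ended without non-treated replicate 2 (log2 -0.81) or 3 (-0.91) or DNFB replicate 1 (-0.79) or 3 (-0.89). In the actin list 4 of 27 rose (2 without DNFB replicate 1) and 8 fell, among them Evl, from 1507, 1750 and 1581 to 358.8, 376.2 and 384.2, and Coro1a, which fell 2.08-fold from 11530, 10550 and 10310 to 5479, 4673 and 5392.

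Of 14 genes of prostaglandin and leukotriene synthesis and sensing 3 rose and 5 fell, and 3 fell without non-treated replicate 1. The rises were Pla2g4a, Ptgs2 and the receptor Ptger2 (log2 1.36), and the falls were Ptger3, Ptger4, Alox5, Lta4h and Ltc4s. Pla2g4a, the phospholipase that frees arachidonic acid, rose from 3583, 3733 and 3111 to 6691, 7488 and 6236 (1.95-fold). Ptgs2 (COX-2) rose from 13.21, 19.27 and 43.74 to 132.2, 255.7 and 134.4. Alox5, at the head of the leukotriene branch, fell from 3406, 3368 and 3353 to 1531, 1319 and 1506 (2.32-fold), and the prostaglandin E receptor Ptger3 from 4327, 4456 and 3868 to 1047, 1156 and 1138. Purinergic receptors fell in 4 of 14 cases and rose in 1. P2ry12, P2ry13 and P2ry14 fell 3.20-fold, 2.91-fold and 1.64-fold, while P2ry10, a receptor for lysophosphatidylserine, rose from 2619, 4171 and 3410 to 6199, 6583 and 5524. Regulators of G protein signalling rose in 4 and fell in 6 of 15 cases. The GTPase Rrad rose from 137.8, 257.8 and 180.5 to 1308, 1329 and 1376 (6.72-fold) and Rgs1 2.69-fold, while the receptor kinase Grk6 and the arrestin Arrb1 fell 2.30-fold and 2.03-fold.

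Transcription factors of dendritic and myeloid cells rose in 5 and fell in 8 of 25 cases, with 5 lower without DNFB replicate 3. Irf4, needed by migratory dendritic cells, rose from 677.2, 580.7 and 430.6 to 1648, 1624 and 1185 by its brightest probe set (2.61-fold), although the mean of its probe sets, 0.61 on the log2 scale, did not pass. Irf5 rose 2.07-fold and the repressor Etv3 2.42-fold. Runx3, required for Langerhans cells, fell from 3385, 3593 and 3592 to 1785, 1516 and 1920. Genes of resting tissue phagocytes fell in 6 of 18 cases and rose in 1: besides Tmem119, Gpr34 and P2ry12, the complement subunit C1qa fell from 3985, 6082 and 4286 to 1452, 2329 and 2490 (2.30-fold).

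Genes of cell division fell throughout the cycle. Of 30 genes of the mitotic spindle and kinetochore 29 fell and 1 rose (median log2 -0.98). The kinetochore subunit Spc25 fell from 1485, 1090 and 1689 to 353.2, 251.9 and 434.2 (4-fold, with a log2 SE of 0.183 and adjusted p = 1.27e-07). Kif23, a motor of the midzone, fell from 1943, 2119 and 1623 to 635.2, 739.1 and 513.8 (2.98-fold), and Cenpf from 1365, 1409 and 1456 to 495.7, 548.8 and 412.6 (2.86-fold). The proliferation marker Mki67 fell 2.13-fold. The exception was the centromeric histone Cenpa, named after its value was seen. Its signals of 3598, 3485 and 3967 rose to 7069, 6435 and 6999 (1.85-fold, log2 0.89 ± 0.115, adjusted p = 8.71e-06). Another kept probe set of the gene passed in the same direction.

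Replication and repair genes fell without exception among those that passed: 23 of 29 genes of DNA replication and nucleotide synthesis (median log2 -0.81) and 15 of 21 repair genes (-0.75). Rrm2, the regulated subunit of ribonucleotide reductase, fell from 4526, 4020 and 5116 to 1038, 1018 and 907.6 (4.54-fold), thymidine kinase Tk1 from 1000, 785.9 and 1014 to 270.2, 160.3 and 296.5 (3.77-fold) and Uhrf1 2.54-fold. The helicase subunit Mcm7 fell 1.76-fold from 17880, 17650 and 19250 to 10880, 9818 and 10330. Among repair genes the end-joining proteins Xrcc5 and Xrcc6 fell 2.10-fold and 2.07-fold, the damage kinase Atm from 940.1, 649.5 and 766.3 to 355, 326.8 and 291.6 and the uracil glycosylase Ung 2.47-fold. At the G1 step 15 of 26 genes fell and 3 rose. Ccnd1 fell from 10490, 10260 and 9710 to 4668, 4279 and 3861 (2.38-fold), while the inhibitors Cdkn1a (p21) and Cdkn2b (p15) rose, Cdkn1a from 1337, 1318 and 958.4 to 8038, 7251 and 6445 and Cdkn2b from 881.7, 889.4 and 884.5 to 2072, 1988 and 2051. The inhibitor Cdkn2c fell 2.37-fold.

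Many mitotic promoters are known to share a TTTGAA element (cell cycle homology region) placed downstream of CCAAT boxes. In the same 300-base windows, searched on both strands, 18 of 23 mitotic genes with 1 listed promoter held TTTGAA (78.3%), against 12.1% of all tested genes, 18.5% of all promoters, 45 of 281 genes that fell and 25 of 261 that rose at least 2-fold. CCAAT was present in 19 of the 23 (82.6%), against 39.0% of all tested genes. The replication list, which fell too, held TTTGAA in 2 of 21 promoters (9.5%) and CCAAT in 14. The promoters of the 3 mitotic genes with per-array values above are shown with that of Cenpa, the member that rose, which held both elements as well. Capitals mark TTTGAA and CCAAT in either orientation (ATTGG is CCAAT reversed), and no match overlaps another.
Spc25 (chr2:69206184-69206363, minus strand, TTTGAA at base 25 after the start): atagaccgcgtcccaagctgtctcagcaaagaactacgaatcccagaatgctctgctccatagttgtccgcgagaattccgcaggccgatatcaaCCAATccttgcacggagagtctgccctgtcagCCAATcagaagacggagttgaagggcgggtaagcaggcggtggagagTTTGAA
Kif23 (chr9:61946770-61946949, minus strand, TTTGAA at base 3 after the start): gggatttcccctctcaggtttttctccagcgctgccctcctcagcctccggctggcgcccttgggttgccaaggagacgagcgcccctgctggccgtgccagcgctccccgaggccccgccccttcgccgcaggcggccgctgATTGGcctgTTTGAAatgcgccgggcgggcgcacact
Cenpf (chr1:189688057-189688236, minus strand, TTTGAA at base 3 after the start): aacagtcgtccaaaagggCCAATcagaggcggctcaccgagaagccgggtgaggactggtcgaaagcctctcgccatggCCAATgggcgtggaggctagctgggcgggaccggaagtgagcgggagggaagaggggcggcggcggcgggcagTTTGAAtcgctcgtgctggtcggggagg
Cenpa (chr5:30666736-30666915, plus strand, TTTGAA at base 17 after the start): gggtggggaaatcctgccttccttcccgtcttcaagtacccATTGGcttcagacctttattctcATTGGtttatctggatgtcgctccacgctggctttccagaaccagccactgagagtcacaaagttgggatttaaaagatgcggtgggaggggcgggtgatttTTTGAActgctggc

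Among 22 targets of p53, 8 rose and 4 fell, with a median log2 change of -0.08 beside -0.06 over all genes tested. The targets named from this list are all among the rises. Besides Cdkn1a, the pro-death BH3 genes Pmaip1 (Noxa) and Bbc3 (Puma) rose, Pmaip1 from 4905, 3916 and 3980 to 12410, 9663 and 9954 (2.49-fold) and Bbc3 2.33-fold. Plk2 rose from 56.45, 96.87 and 9.215 to 378.7, 383.2 and 309.5, with a log2 change of 2.68, and 2.05 without non-treated replicate 3. Mdm2, which limits p53, was 1.58-fold higher, a call that ended without non-treated replicate 3 (log2 0.59). In the BCL2 family 3 of 14 rose and 2 fell (1 without non-treated replicate 2 or DNFB replicate 3). The BH3 gene Bcl2l11 (Bim) rose from 1680, 1768 and 1476 to 5564, 5646 and 5984 (3.48-fold, log2 1.80 ± 0.136), and the antiapoptotic Bcl2 fell 1.48-fold, from 1764, 1617 and 1844 to 1237, 1028 and 1257.

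Of 27 interferon-stimulated genes none rose and 9 fell, and this list differed between the 2 sets of arrays described below, with a median of -0.75 in one and -0.04 in the other. Usp18, which restrains interferon receptor signalling, fell from 8822, 8183 and 8194 to 2335, 2097 and 1997 (3.90-fold). Ifit2 fell from 519.4, 584.3 and 476 to 151.4, 197.8 and 78.03 (3.63-fold), Trim30a 2.02-fold and the GTPases Gbp3 and Irgm1 1.88-fold and 1.62-fold. The groups of these 5 genes did not overlap, while 18 of the 27 did not pass. The interferon element TTTCNNTTT stood in 13 of 18 promoters of this list (72.2%), against 7.9% of tested genes.

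In the aryl hydrocarbon receptor pathway 4 of 6 genes fell and 1 rose. The hydroxylase Cyp1b1 fell from 413.1, 377.6 and 466.7 to 120.8, 104 and 36.94 (4.59-fold, log2 -2.20 ± 0.438, adjusted p = 0.000795), the repressor Ahrr from 1712, 1799 and 1656 to 540.3, 589.2 and 620.6 (2.91-fold) and Tiparp, a feedback enzyme, 1.68-fold. The receptor gene Ahr was 1.38-fold lower, but its call ended without non-treated replicate 2 (log2 -0.42) or 3 (-0.44) or DNFB replicate 3 (-0.36). Its partner Arnt, the gene called higher, lost its call without any of 4 arrays (non-treated replicate 1, 0.32, or 2, 0.38, and DNFB replicate 1, 0.42, or 2, 0.34). Among 24 genes of sterol and fatty acid synthesis 4 rose and 6 fell. The rises were all of sterol synthesis (Idi1, Sqle, Cyp51 and Msmo1, log2 0.47 to 0.78), and 1 was left without DNFB replicate 2. Among 21 genes of cholesterol export and lipid storage 3 rose (Abcg1, Lipa and Dgat1) and 4 fell. The desaturase Scd2 fell from 19130, 17260 and 17950 to 6814, 6742 and 6022 (2.77-fold) and the ester hydrolase Nceh1 3.37-fold. Of 25 genes of glycolysis and the hypoxia response 4 rose and 2 fell, with 1 lower without non-treated replicate 1, DNFB replicate 2 or DNFB replicate 3 and 4 lower without non-treated replicate 3. Hexokinase Hk2 fell from 3454, 3012 and 2381 to 1428, 1015 and 1053 (2.51-fold) while the glucose transporter Slc2a1 rose 1.52-fold. The hypoxia-inducible Ndrg1 rose 1.97-fold.

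Ribosome biogenesis genes fell in 10 of 27 cases with none higher (median log2 -0.34). Leaving out either non-treated replicate 3 or DNFB replicate 2 gave 6. Dkc1, which modifies ribosomal RNA, fell from 6590, 6265 and 6776 to 3142, 2999 and 3424 (2.05-fold), Tsr1 1.59-fold and Wdr12 1.63-fold. In the MYC network 6 of 18 genes fell, a number that was 3 without DNFB replicate 2, and 3 rose. The antagonist Mxd1 rose 2.41-fold beside the fall of Myc. Of 26 lysosomal genes tested, 4 passed as higher and 1 as lower, beside shares of 10.5% and 13.9% over all genes. The galactosidase Gla rose from 279.4, 325.1 and 400.7 to 729.9, 1142 and 1112.

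The deposited arrays carried 2 scaling targets, 250 and 500, which divide this comparison into sets that share no array. DNFB replicates 1 and 3 and non-treated replicate 1 had the lower target, and DNFB replicate 2 and non-treated replicates 2 and 3 the higher. After rescaling, the change of each gene was computed in each set by itself. Across the 12701 genes, which are not independent, the changes of the sets correlated with r of 0.621 (Spearman rho 0.581). Of the 3105 genes called in the whole comparison 3101 had the same sign in both sets, which is partly fixed by their having been called on the sum of the same arrays. The log2 changes differed by more than 1 between the sets for 76 of the called genes. The mitotic and replication lists had medians of -1.01 and -0.80 in the first set and -0.89 and -0.84 in the second, and the NF-kB list 1.02 and 0.97. The early gene lists were higher in the second set, at 0.92 against 0.46 for EGR, NR4A and related genes. No test of the difference between the sets was made, since each group has a single array in 1 of them.

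**Figure D5:**
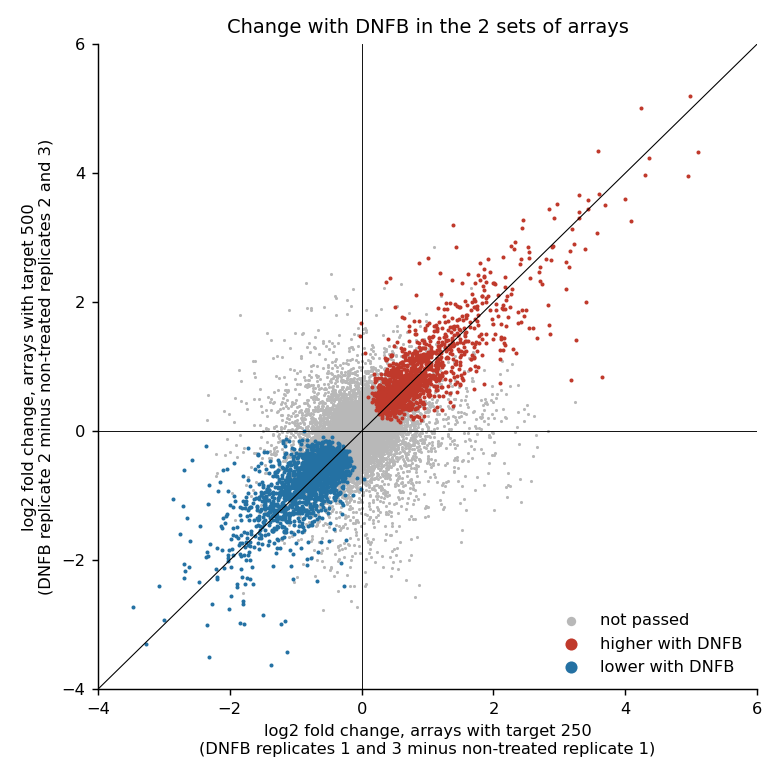
Log2 fold change of each gene in the arrays with scaling target 250 (x axis) and with target 500 (y axis), which share no array. Red and blue points passed as higher and lower in the comparison of all 6 arrays, and the diagonal is equality. Of the 3105 coloured genes 3101 have the same sign on both axes.

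The DNFB arrays were also compared directly with the arrays treated with H2O2, an oxidant that does not bind protein as a hapten. At a limma adjusted p below 0.05, 1873 of the 12701 genes (14.7%) differed, 1111 higher and 762 lower with DNFB. The genes below were chosen on the same DNFB arrays, so their share is a description. Of the 1337 genes that rose with DNFB 396 were higher with DNFB than with H2O2 and 71 lower, and of the 1768 that fell 313 were lower and 98 higher. Procr was 14-fold higher with DNFB than without treatment, and its difference from H2O2 was 2.57 ± 0.126 on the log2 scale (adjusted p = 1.8e-10). Mmp12 differed by 2.16, Clec4d by 2.49 and Cd207 by 2.27, and H2O2 by itself had moved Clec4d by -0.07. Serpinb9 (1.90), Il1f9 (1.88) and Muc3 (2.98) were likewise higher with DNFB. The rises of Procr and Mmp12 over the non-treated arrays (log2 3.81 and 4.72) exceed their differences from H2O2. By these estimates both were also higher with H2O2 than without treatment. P2ry10 had opposite signs, 0.86 with DNFB and -1.08 with H2O2, a difference of 1.95 (adjusted p = 3.4e-07). Pla2g4a had 0.97 and -0.47 (difference 1.44, adjusted p = 9.7e-07). Lower with DNFB than with H2O2 were Cyp1b1 (-2.23), Tiparp (-1.34), Ccl3 (-2.16), Hbegf (-1.55), Cd83 (-1.39) and Atf3 (-1.18). Of these, Ccl3, Hbegf, Cd83 and Atf3 had risen with DNFB over the non-treated arrays, by less than with H2O2. The heat shock genes Hspa1b (-0.73, adjusted p = 0.4) and Bag3 (-0.25, adjusted p = 0.27) did not pass, nor did Cxcl2 (-0.19), Cdkn1a (-0.20) or Spc25 (0.10), each of which leaves a standard error of 0.134 to 0.511 around the difference.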

How the data were processed

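RNA of the cells was extracted with TRIzol and RNeasy Plus and amplified with a 3' IVT Express kit for Affymetrix arrays, per the labels' protocols. The deposited values are linear signal intensities per probe set, made by the authors with MAS5 in Affymetrix Expression Console, per the submitters' processing notes, whose versions are not given in the sources used here. Deposited arrays had a 2% trimmed mean of 250 (6 arrays) or 500 (9 arrays), and each was rescaled to 500.

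Of 45101 probe sets 64 controls were left out. Of the others, 34945 named 1 gene, 932 several and 9160 none in the platform annotation; symbols of 34741 were updated by gene ID through the RefSeq table (GRCm38.p6). Probe sets above the 40th percentile of mean log2 signal were kept, the brightest per gene was used, and log2(signal + 15) was fitted in limma 3.58.1 (R 4.3.3) over all 15 arrays, with a trended prior and Benjamini-Hochberg adjustment over 12701 genes. Fold changes are on that scale, which understates dim genes. Group means behind folds are geometric. The script was tested on simulated data.

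Named genes were the 14 largest rises and 14 largest falls without overlap between groups, the 10 rises and 10 falls with the largest moderated t, up to 5 members per list with the lowest adjusted p, and fixed genes whatever their values. Unnamed and predicted genes were left out of the first 2 rules. Members and lists were chosen with earlier results of these data known. Promoter shares are descriptions. Alternatives covered the pseudocount, filter, scaling, normalization, probe set choice, prior, array set, blocks and each array left out.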

Additional observations from a re-analysis of the deposited data

How the results depend on the processing

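Each of the 297 named genes was recomputed under 24 or 25 alternative settings. Of the 280 that passed, 0 changed sign in any of them and 75 passed in every one, while 9 of the 17 that had not passed changed sign in at least 1. On the values as deposited 68 genes passed as higher and 142 as lower, and 25 genes called after rescaling had the opposite sign. That setting kept 209 of the 3105 calls. With the mean of kept probe sets per gene, 23 called genes had the opposite sign. All kept probe sets, counted singly, gave 2046 higher and 2458 lower out of 22561 probe sets. Arrays of the first scaling target gave 1130 lower, and those of the second 632 higher and 717 lower. At an adjusted p below 0.01, 1132 were lower. Leaving out each array in turn gave 1060 to 1166 higher and 1400 to 1517 lower. The replicate block gave 1490 higher and 1992 lower, and on the 6 arrays alone, an alternative added after seeing the data, 1826 and 2443. Deviations of same-numbered arrays correlated at 0.111, 0.132 and 0.056, so the numbers were not taken to pair the arrays, although each array correlated best with its own number, a hint from the data and not from the design. The number of arrays and dim signals limit what could be called.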

Other observations

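Gene families grouped by symbol were counted too, read against the same 10.5% higher and 13.9% lower. Some of their members, such as Il1b and Kif23, also stand in the lists above, so these counts are not separate from those. Mitochondrial ribosomal proteins (Mrpl and Mrps) fell in 28 of 76 cases and rose in 1, with a median log2 change of -0.28, and 17 fell without DNFB replicate 2. Cytosolic ribosomal proteins (Rpl and Rps) fell in 1 of 46 cases and rose in none. Subunits of RNA polymerases (Polr) fell in 9 of 25 cases with none higher, and in 6 to 8 on leaving out 1 array. Complex I subunits (Nduf) fell in 12 of 43 cases, a count that was 5 without DNFB replicate 1, 4 without DNFB replicate 2, 7 without non-treated replicate 2 and 6 without non-treated replicate 3.

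Ubiquitin-conjugating enzymes rose in 9 of 30 cases and fell in 2. Interleukins and their receptors named Il rose in 10 of 46 cases with none lower. MAP kinases and the kinases above them rose in 10 of 38 cases and fell in 4. Kinesins (Kif) fell in 9 of 30 cases and rose in 1. Zinc finger genes (Zfp), the largest family counted, rose in 23 of 256 cases and fell in 14, with 15 higher without DNFB replicate 2 or 3, and 7 lower without DNFB replicate 3.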
